A study of Mus musculus with 27 samples.

Results

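The pooled Gne effect is the average difference, at equal C3 genotype and sequencing run, between retinas of Gne+/- mice and retinas of mice with both copies of Gne. It was estimated from 27 of 27 libraries of the series, 13 Gne+/- and 14 Gne+/+, with Gne genotype, C3 genotype and run as additive terms. Every retina came from a separate mouse kept to an age of 9 months, and its RNA was measured by 3′ mRNA sequencing, which reads the end of each transcript. The Gne+/- libraries comprised 7 with C3+/+ and 6 Gne+/- C3-/- retinas, and the Gne+/+ libraries 7 wildtype and 7 C3-/- retinas. Run 1 held 9 Gne+/- and 9 Gne+/+ libraries, and run 2 held 4 and 5. Titles of Gne+/- mice call them a Gne knock-out where C3 is present and a heterozygous Gne knock-out where it is absent. All of these titles give the genotype as Gne+/-. The labels call the C3 allele a knock-out. They name no cell type or promoter to which either is restricted. The sex and strain of the mice and the part of each gene that was removed are not given in the sources used here.

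Gne encodes a bifunctional enzyme, an epimerase and kinase, that carries out the first committed steps of sialic acid synthesis. Later enzymes make free sialic acid, Cmas activates it in the nucleus, Slc35a1 carries the activated sugar into the Golgi apparatus, and sialyltransferases attach it to glycoproteins and gangliosides. Sialic acid on the cell surface is read by inhibitory receptors of microglia, the Siglecs, and helps to restrain the complement cascade at C3, so that losing it is thought to expose neurons to complement and to phagocytes. Sialic acid itself was not measured here.

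Total counts ranged from 13.5 to 34.2 M per library (median 18.5 M), with medians of 18.5 M in Gne+/+ and 18.1 M in Gne+/- libraries. The retinal markers were present in every library, with the cone arrestin gene Arr3 at 199.5 to 904.1 CPM (counts scaled to the size of the library) and the rod bipolar kinase gene Prkca at 731 to 1648 CPM. Their levels varied between libraries, most widely for the amacrine gene Gad1, from 1.87 to 137 CPM (median 23.8). The runs differed in 10387 of 17409 tested genes (59.7%, edgeR, adjusted p under 0.05), so values are given by run where levels matter. Reads lying where annotated genes overlap were not counted. A listing at 0 of a gene such as Itgam, which other genes cover over 99.9% of its length, is therefore no measure of its expression. The mean of 4 Y-linked genes was above 10 CPM in 8 of 13 Gne+/- and 6 of 14 Gne+/+ libraries, and was uneven within strata. With C3 present these were 2 of 5 Gne+/- and 0 of 5 wildtype libraries in run 1, and 2 of 2 of each in run 2. Without C3 they were 2 of 4 Gne+/- and 4 of 4 Gne+/+ libraries in run 1, and 2 of 2 and 0 of 3 in run 2. With Y-linked expression as a term, Gne was again the 1 gene called, at -1.58.

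Loss of a Gne copy lowered Gne to 33.5% of its Gne+/+ level (95% interval 29.3% to 38.2%). In run 1, Gne (ENSMUSG00000028479, chromosome 4, 44034075 to 44084177, minus strand, GRCm38) ranged from 99.2 through a median of 121.8 to 161.6 CPM in Gne+/+ libraries. In Gne+/- libraries of that run it ranged from 32 through 44.0 to 56.7 CPM. In run 2, the lowest, median and highest values were 43.0, 45.8 and 55.5 CPM in Gne+/+ and 13, 13.6 and 16.4 CPM in Gne+/- libraries. Within each run every Gne+/- library lay below every Gne+/+ library. Across runs the ranges met, since the Gne+/+ libraries of run 2 lay within the range of the Gne+/- libraries of run 1.

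**Figure D1:**
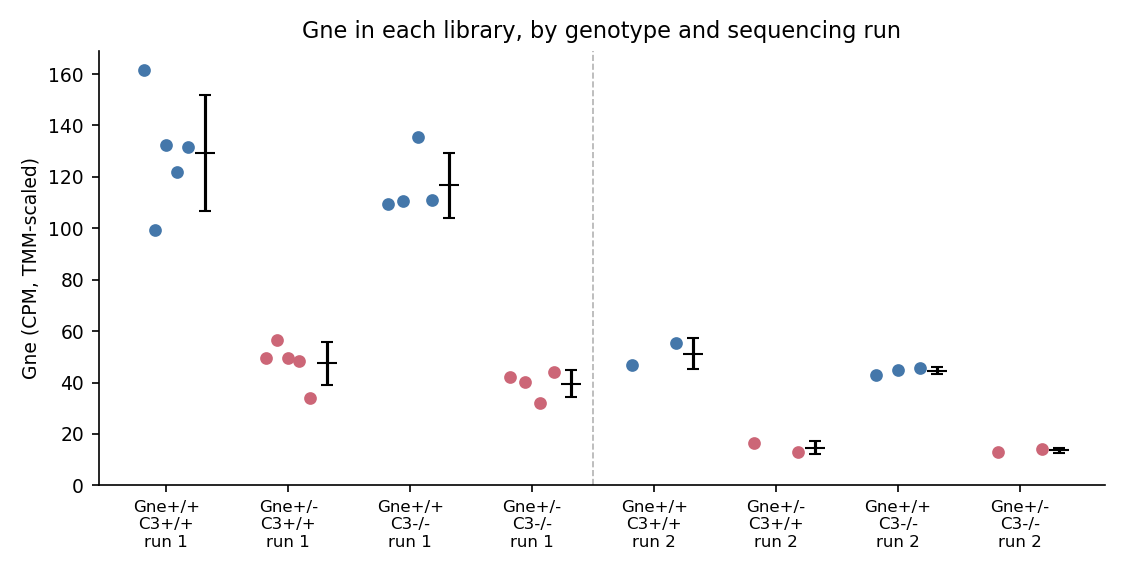
Gne in each of 27 libraries in CPM (vertical axis), by genotype and sequencing run (horizontal axis). Points are libraries, blue for Gne+/+ and red for Gne+/-, and bars give the mean ± SD. In each run and C3 genotype the red points lie below all blue points, at 28.7% to 36.8% of the Gne+/+ mean.

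The pooled log2 fold change of Gne was -1.58 (SE 0.0939, 95% interval -1.77 to -1.39; edgeR quasi-likelihood test, adjusted p = 6.39e-14). With C3 present the level was 36.8% of the Gne+/+ mean in run 1 and 28.7% in run 2, and without C3 it was 33.9% and 30.4%. The log2 fold change was -1.53 (SE 0.158) in C3+/+ libraries alone and -1.62 (SE 0.12) in C3-/- libraries alone. These estimates differed by -0.08 (SE 0.184, edgeR interaction term, unadjusted p = 0.670). Between the runs it was -1.47 (SE 0.122) and -1.74 (SE 0.167), a difference with an unadjusted p of 0.181. The permutation of Gne genotype within run and C3 genotype (100000 resamples, 2-sided) gave p = 1e-05, the smallest that this number of resamples can give. Reads from outside the removed part of an allele can still be counted, and where these reads lie was not used here.

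No other gene passed. Of 17409 tested genes, 1 was called (0.00574%), 0 higher and 1 lower, and the smallest adjusted p after Gne was 0.99952. Before adjustment 571 genes (3.28%) had p under 0.05, fewer than the 870 of a uniform distribution of p, with 261 higher (1.5%) and 310 lower (1.78%). Positive estimates made up 50.6% of all genes, and the median log2 fold change was 0.0028. The middle part of the distribution, from the lower to the upper quartile, spanned -0.13 to 0.17. Libraries were also compared directly by their CPM. In run 1, Gne was the single gene of 17409 whose Gne+/- and Gne+/+ libraries did not overlap (0.00574%). The small run 2 alone held 141 such genes that were lower (0.81%) and 151 that were higher (0.867%), and Gne was the only gene separated in both runs.

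**Figure D2:**
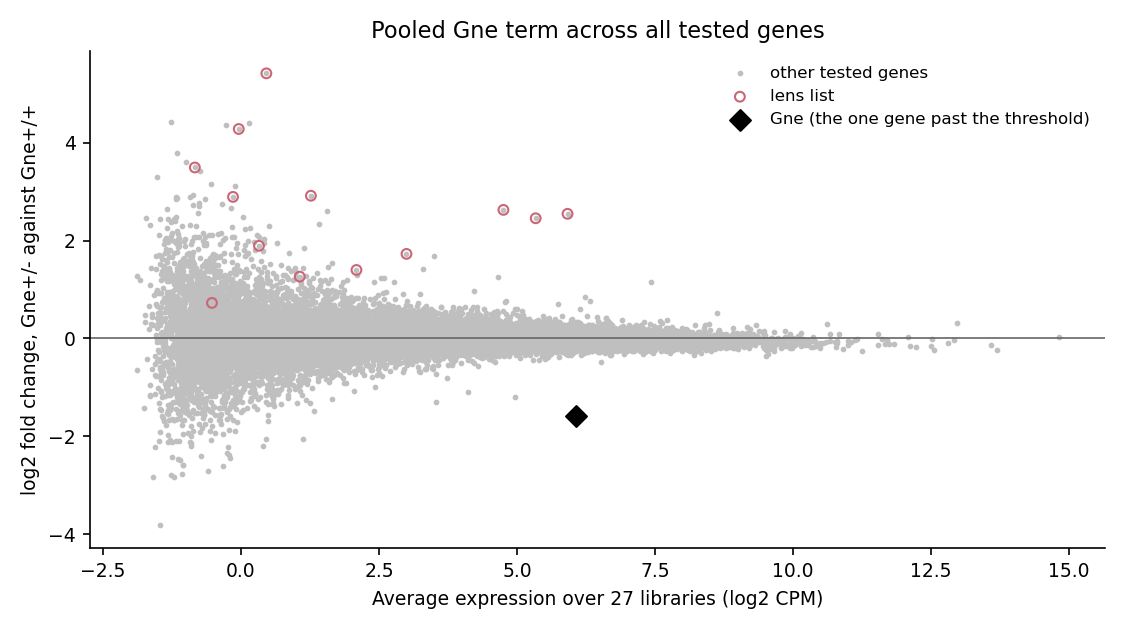
Log2 fold change of the pooled Gne term (vertical axis) against average expression over 27 libraries in log2 CPM (horizontal axis) for 17409 tested genes. Gne (black diamond) is the 1 gene past the threshold at a log2 fold change of -1.58, and the circled lens genes lie above 0 with none past the threshold.

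How far a change in other genes could have gone unseen depends on their abundance. Pooling the C3 genotypes gave a median SE of 0.221 on the log2 scale, against 0.337 in C3+/+ and 0.268 in C3-/- libraries alone. For 11462 genes (65.8%) the 95% interval lay within a 2-fold change in either direction. Among 2220 genes with a mean of 100 CPM or more this held for 99.3%, among 7140 genes of 10 to 100 CPM for 97%, among 5317 genes of 1 to 10 CPM for 42.9%, and among 2732 genes under 1 CPM for 0.696%. It held for 18 of 18 tested genes of rod and ON bipolar cells and 23 of 24 of rods, but for 6 of 13 homeostatic microglial genes and 4 of 12 complement components.

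Of the other steps of sialic acid metabolism, none passed (1 of 9 tested members called, Gne itself, beside 0.00574% of all genes). The median of the 9 genes, Gne included, was -0.20. Of them 8 were negative, counting Gne, whose direction the targeted allele fixed. Slc35a1, the Golgi transporter of activated sialic acid, had 76.7 to 121.9 CPM in Gne+/+ and 54.7 to 131.5 CPM in Gne+/- libraries of run 1, which overlap. Its log2 fold change was -0.20 (SE 0.12), -0.19 with C3 and -0.21 without. Cmas, which activates the sugar, stood at -0.10 (SE 0.107), with 95% limits of -0.31 and 0.12. Casd1, which adds acetyl groups to sialic acid, stood at -0.20 (SE 0.118), and Siae, which removes them, at 0.39 (SE 0.232). The synthase gene Nans, overlapped over 68.5% of its span, had 21 counts in all libraries together and could not be tested. In C3-/- libraries alone the list median was 0.01, with 5 of 9 members positive.

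Among the enzymes that attach sialic acid, 18 of 20 listed sialyltransferases were tested, 0 were called, 10 were positive and the median was 0.02. St3gal5, the synthase of ganglioside GM3 and so the entry to complex gangliosides, had the smallest unadjusted p of them (0.00793, edgeR, rank 61 of 17409). In run 1 it ranged from 37.3 through 42.5 to 57.2 CPM in Gne+/+ and from 28.0 through 35.8 to 48.8 CPM in Gne+/- libraries, with overlap. Its log2 fold change was -0.33 (SE 0.115), at -0.20 with C3, -0.43 without, -0.27 in run 1 and -0.35 in run 2. St8sia1, which makes the disialoganglioside GD3, stood at -0.24 (SE 0.137), and St6gal1, which sialylates N-glycans, at 0.43 (SE 0.242). St6galnac1 stood at -2.23 (SE 1.02) with a median of 0.0715 CPM in Gne+/+ libraries. The sialidases Neu1, which works in lysosomes, and Neu3, at the cell surface, stood at 0.15 (SE 0.156) and 0.14 (SE 0.294).

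Proteins that carry or read sialic acid gave 0 called genes as well. Of 12 acceptor proteins and ganglioside synthesis genes, 4 were positive (median -0.04). The adhesion molecule L1cam stood at -0.26 (SE 0.121). The sialic acid receptors were near the detection limit: of 13 listed, 5 were tested, with means of 0.474 to 1.98 CPM. Cd33 stood at -0.60 (SE 0.844), the microglial Siglech at -0.34 (SE 0.522) and Siglece, an inhibitory receptor, at -0.20 (SE 0.819). The signalling adaptor Tyrobp stood at 0.45 (SE 0.724). None of these 5 intervals lay within a 2-fold change.

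Complement components gave 0 of 12 tested genes called, with 9 positive and a median of 0.23, beside 50.6% positive and a median of 0.0028 over all genes. By run the median was 0.21 (9 of 12 positive) in run 1 and -0.12 (6 of 12) in run 2, and without Gne+/- mouse 8 the pooled median was 0.10. C1qa, a chain of the initiator C1q, ranged from 3.68 through 6.36 to 10.8 CPM in Gne+/+ and from 2.79 through 6.71 to 21.5 CPM in Gne+/- libraries of run 1. These ranges overlap almost fully, and the log2 fold change was 0.34 (SE 0.253), or 0.17 without Gne+/- mouse 5, the library at 21.5 CPM. The other C1q chains stood at -0.40 (C1qb, SE 0.529) and 0.01 (C1qc, SE 0.29), so the 3 genes of this complex did not share a sign. C2, a protease of the classical pathway, stood at 0.50 (SE 0.39) and C1ra, a protease of the C1 complex, at 0.68 (SE 0.601). C4b, the thioester protein that follows C1, stood at -0.49 (SE 0.46), at 0.17 in run 1 and at -2.15 in run 2. This last estimate rests on 4 and 5 libraries, with 4.85 to 10.2 CPM in Gne+/+ and 0 to 3.73 CPM in Gne+/- libraries of run 2, which do not overlap (as for 0.81% of all genes in that run and direction). The Gne by run interaction called 0 genes, and for C4b its unadjusted p was 0.0283.

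C3 itself could be compared only among C3+/+ libraries, where the Gne effect on C3 was 0.002 (SE 0.22), since C3 counts were near 0 in C3-/- libraries. Of 16 tested regulators and receptors of complement, 0 were called, 11 were positive and the median was 0.05. Serping1, the C1 inhibitor, stood at 0.32 (SE 0.218) and the receptor Cr2 at 0.57 (SE 0.392). Itgb2, the shared chain of complement receptors 3 and 4, stood at 2.01 (SE 0.94, unadjusted p = 0.0393), with no more than 1.77 CPM in any library. At such levels the sign can depend on which libraries let a gene pass the filter on low counts.

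Microglial genes gave 0 calls. Of 13 tested homeostatic genes, 9 were positive (median 0.12), and of 21 tested genes of activated microglia and lysosomes, 19 were positive (median 0.25). Over all genes 50.6% were positive, a share that covers genes of every level and was not taken among genes as low as some members. By run the activated list had a median of 0.29 with 17 of 21 positive in run 1, and 0.10 with 14 of 21 in run 2. Its members had the same sign in both C3 genotypes for 15 of 21. The homeostatic median was 0.22 without wildtype mouse 6. In C3+/+ libraries it was 0.05 with 7 of 13 positive, and in C3-/- libraries 0.28 with 10 of 13. When C3+/+ libraries were filtered anew and fitted alone, it was -0.04. In bulk retina, fewer cells of a type and less RNA per cell cannot be told apart. Trem2, a lipid receptor of microglia, had the smallest unadjusted p in these lists (0.0141, edgeR, rank 126). It ranged from 0 through 0.181 to 1.14 CPM in Gne+/+ and from 0.0512 through 1.59 to 3.15 CPM in Gne+/- libraries of run 1, and from 0 to 1.10 and from 0.414 to 2.53 CPM in run 2. The groups overlap in both runs. The log2 fold change was 2.00 (SE 0.772), at 2.55 with C3, 1.36 without, 2.40 in run 1 and 1.16 in run 2. A gene this low in Gne+/+ libraries passes the filter on low counts more readily when Gne+/- libraries are high. This favours a positive sign, so the estimates for Trem2 describe it and support nothing further.

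The other microglial genes showed smaller estimates. Cx3cr1, the fractalkine receptor, stood at 0.38 (SE 0.211), at 0.37 with C3 and 0.42 without, and is overlapped by other genes over 57.4% of its span. Lgals3 stood at 0.77 (SE 0.416), the lysosomal membrane gene Cd63 at 0.30 (SE 0.149) and the lysosomal protease gene Ctsb at -0.20 (SE 0.106). The widely used markers Aif1 (0.38, SE 0.789), Cd68 (0.46, SE 0.708) and Tmem119 (-0.21, SE 0.471) had wide 95% intervals, from -1.22 to 1.99, from -0.98 to 1.90 and from -1.17 to 0.74. Some members of the activated list, such as Cd63, Ctsb and Apoe, are also expressed outside microglia. The summed CPM of that list overlapped between genotypes, at 814 to 1115 in Gne+/+ and 823 to 1169 in Gne+/- libraries.

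Bipolar cell genes, by contrast, were measured closely. Of 18 tested genes of rod and ON bipolar cells, 0 were called, 6 were positive and the median was -0.06, and all 18 intervals lay within a 2-fold change. Prkca had 781 to 1207 CPM in Gne+/+ and 731 to 1479 CPM in Gne+/- libraries of run 1. Its pooled level in Gne+/- was 98.6% of the Gne+/+ level (95% interval 87.3% to 111%). Trpm1, the cation channel of the ON response, stood at 89.8% (77.6% to 104%) and Grm6, the glutamate receptor that controls it, at -0.07 on the log2 scale (SE 0.106). Rgs7, a regulator of the same cascade, stood at -0.17 (SE 0.0791), at -0.22 with C3 and -0.12 without.

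Cone and OFF bipolar cells had 19 tested genes, of which 0 were called, 2 were positive and the median was -0.08, beside 0.0028 over all genes. Again all 19 intervals lay within 2-fold. Grik1, through which OFF bipolar cells sense glutamate, ranged from 541.5 through 591.3 to 766 CPM in Gne+/+ and from 281.7 through 543.4 to 697.6 CPM in Gne+/- libraries of run 1, which overlap. In run 2 the medians were 376 and 380.2 CPM. Its log2 fold change was -0.16 (SE 0.0963), at -0.29 with C3 and -0.02 without (interaction, unadjusted p = 0.143). The calcium-binding protein gene Scgn stood at -0.18 (SE 0.093) and the transcription factor gene Zfhx4 at -0.16 (SE 0.109). The list median was -0.17 in C3+/+ and -0.04 in C3-/- libraries, and -0.13 in run 1 and 0.03 in run 2. In run 2, 13 of 19 members were positive.

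Photoreceptors and other neurons also gave 0 calls. Of 24 tested rod genes 9 were positive (median -0.04), and of 15 cone genes 8 (median 0.01). By run the rod list had a median of 0.01 with 13 of 24 positive in run 1, and -0.14 with 4 of 24 in run 2. On the log2 scale the cone arrestin gene Arr3 stood at 0.05 (SE 0.0966, interval -0.15 to 0.24). The rod transducin subunit gene Gnb1 stood at -0.23 (SE 0.0933, unadjusted p = 0.0188) and Rom1, an outer segment disc protein gene, at -0.24 (SE 0.107). Both were negative in each C3 genotype and each run. The amacrine list had 7 of 19 tested members positive (median -0.08), with the neuropeptide gene Vip at -0.51 (SE 0.193, unadjusted p = 0.0129). In run 1 Vip ranged from 9.44 through 32.2 to 41.4 CPM in Gne+/+ and from 11.8 through 21.7 to 33.4 CPM in Gne+/- libraries. For ganglion cells 9 of 15 tested members were positive (median 0.03), with the growth cone gene Gap43 at 0.26 (SE 0.119).

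Among glial genes, Mueller glia had 8 of 18 positive (median -0.01) and the gliosis list 12 of 17 (median 0.03), with 0 called. By run the gliosis list had a median of 0.33 with 13 of 17 positive in run 1, and -0.15 with 5 of 17 in run 2. Glul, the glutamine synthetase of Mueller glia, stood at 96.2% of its Gne+/+ level (95% interval 85.3% to 109%), and Rlbp1, a retinoid carrier, at -0.06 (SE 0.134). Gfap, the filament gene of astrocytes and reactive Mueller glia, ranged from 3.35 through 6.46 to 13.7 CPM in Gne+/+ and from 6.30 through 8.10 to 28.3 CPM in Gne+/- libraries of run 1. In run 2 the medians were 3.11 and 2.36 CPM. Its pooled log2 fold change was 0.38 (SE 0.3), which averages 0.89 with C3 and -0.18 without (interaction -1.07, SE 0.564, unadjusted p = 0.0660). The adhesion receptor gene Cd44 likewise stood at 0.73 with C3 and -0.22 without (unadjusted p = 0.00560), in an interaction fit that called 0 of 17409 genes. Without Gne+/- mouse 4 the Gfap estimate was 0.20.

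**Figure D3:**
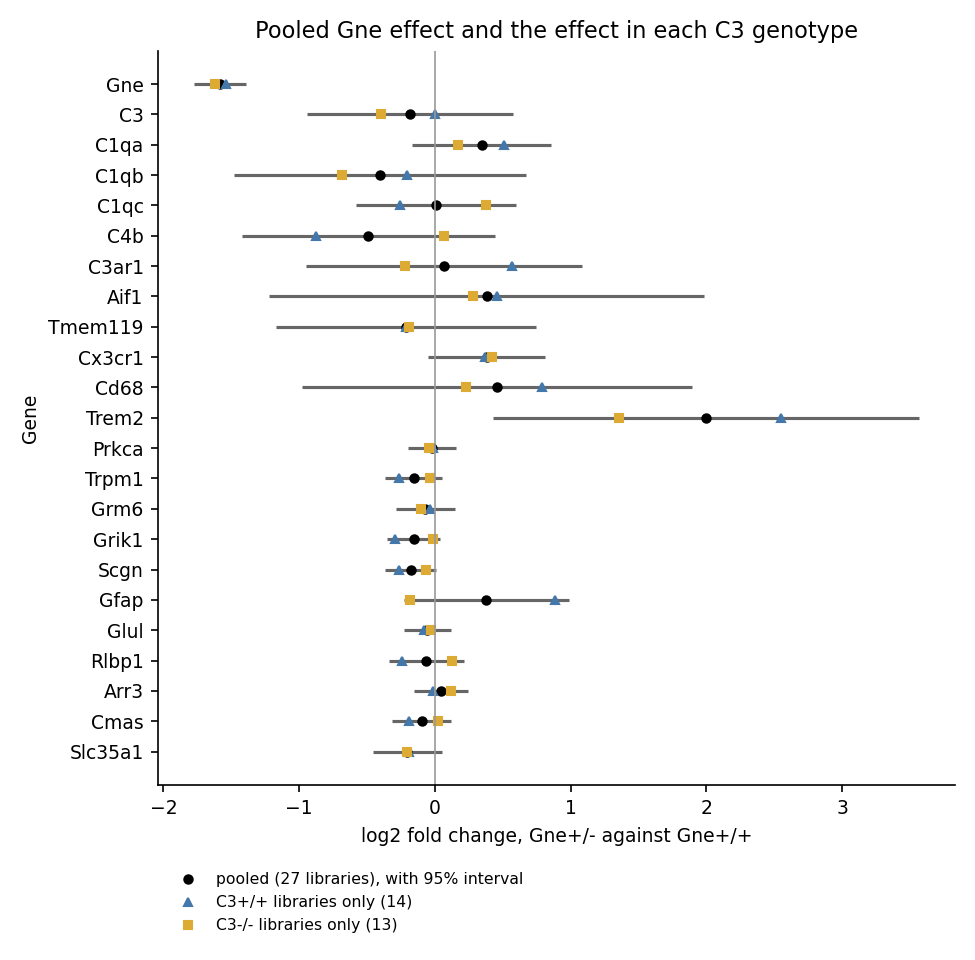
Log2 fold change between Gne+/- and Gne+/+ (horizontal axis) for 23 genes (vertical axis). Black points are the pooled estimates with 95% intervals, and triangles and squares the estimates in C3+/+ and C3-/- libraries. Gne alone passed the threshold, at -1.58, and intervals are narrow for neuron genes such as Prkca and wide for Aif1, Cd68 and Trem2.

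The lens list differed most from the other lists in its median, and it consists of genes of a tissue next to the retina. Crystallins are the refractive proteins of lens fibres. Of 23 listed lens genes 13 were tested and 0 were called. Another 4 were listed at 0 in all libraries, and 6 had counts too low to pass the filter. All 13 tested members were positive, with a median of 2.55. Members near 0 in Gne+/+ libraries could pass that filter only through Gne+/- libraries and then had to be positive, so this count and median describe the tested members and support nothing further. The summed CPM of the list ranged from 1.19 through 6.78 to 174 in Gne+/+ and from 4.05 through 133 to 1806 in Gne+/- libraries. The groups overlap. In run 1 the medians were 5.14 and 166 CPM, and in run 2 they were 6.95 and 5.57 CPM.

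A few libraries carried most of the lens counts. Gne+/- mice 4 and 1 had 1806 and 847.3 CPM, and Gne+/- mouse 5 had 228.6 CPM. Below these lay Gne+/- C3-/- mice 6 and 3 with 171.3 and 147.5 CPM, and Gne+/- mice 3 and 2 with 166 and 133.5 CPM. Of the Gne+/+ libraries, wildtype mouse 1 had 174 and C3-/- mouse 1 had 133.2 CPM, and the others had at most 27.2 CPM. Gne+/- mice 4 and 1 were also the 2 libraries with Y-linked expression among the C3+/+ libraries of run 1, and its part in the lens counts was not tested. With a Y-linked term in the fit the list median was 2.27. The list median was 3.36 in C3+/+ and 1.31 in C3-/- libraries, and 2.98 in run 1 and 0.15 in run 2. It was 1.98 without Gne+/- mouse 4, and 1.36 without both Gne+/- mice 1 and 4, a choice made after their values were seen. Crybb1, a lens crystallin, ranged from 0 through 0.23 to 1.77 CPM in Gne+/+ and from 0 through 2.56 to 20.2 CPM in Gne+/- libraries of run 1 (2.92, SE 0.839). Grifin, a lens galectin relative, was listed at 0 in all 9 Gne+/+ libraries of run 1 and reached 16.6 CPM in Gne+/- libraries. In run 2 Grifin reached 0.659 CPM in Gne+/+ and 0.624 CPM in Gne+/- libraries.

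**Figure D4:**
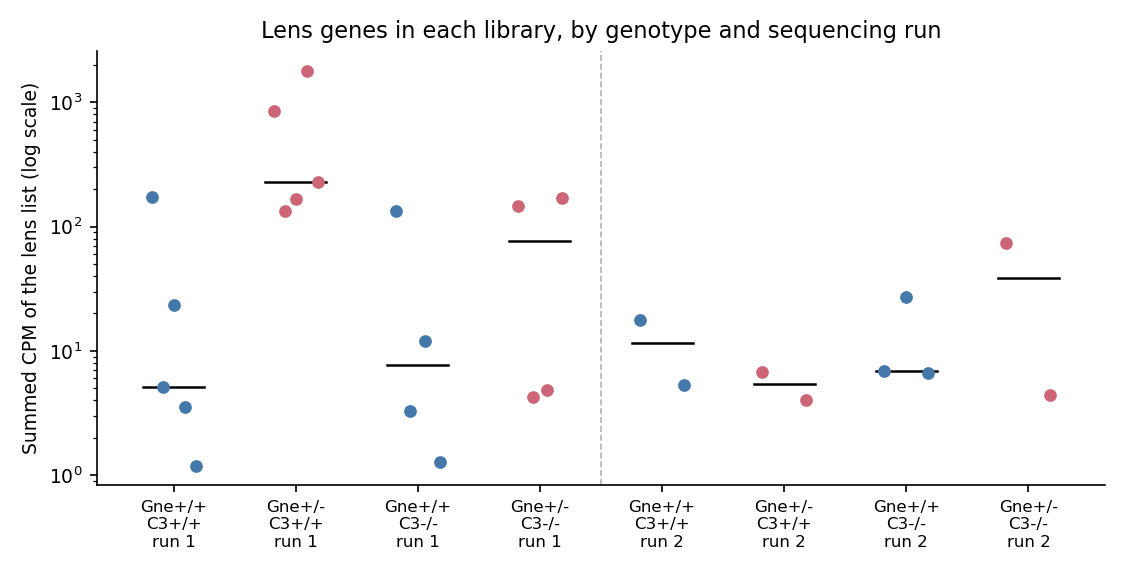
Summed CPM of the lens list in each library (vertical axis, log scale), by genotype and sequencing run (horizontal axis). Points are libraries, blue for Gne+/+ and red for Gne+/-, and horizontal lines are medians. The highest values belong to 2 Gne+/- libraries of run 1, at 1806 and 847.3 CPM, and in run 2 the genotypes overlap.

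Lists of other neighbouring tissues had smaller medians. Genes of the ciliary body, iris and cornea were positive in 5 of 8 tested (median 0.62, or 0.30 without Gne+/- mouse 4). Fibroblast and sclera genes were positive in 10 of 11 tested (median 0.37), with the matrix gene Fbln1 at 1.2 (SE 0.463), and pigment epithelium and melanocyte genes in 13 of 16 (median 0.25). The summed CPM of the fibroblast list ranged from 25.7 to 63.3 in Gne+/+ and from 34.1 to 73.7 in Gne+/- libraries. That of the pigment epithelium list ranged from 147.9 to 861.2 and from 166.4 to 865.8 CPM. In run 2 the medians of the 2 lists were 0.10 and 0.05. The calponin gene Cnn1, of smooth muscle, stood at 2.49 (SE 0.841), and 8 of 11 tested pericyte and smooth muscle genes were positive (median 0.19). The part of these tissues in the estimates for microglial and complement genes, some of which fibroblasts and pigment cells also express, was not tested.

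**Figure D5:**
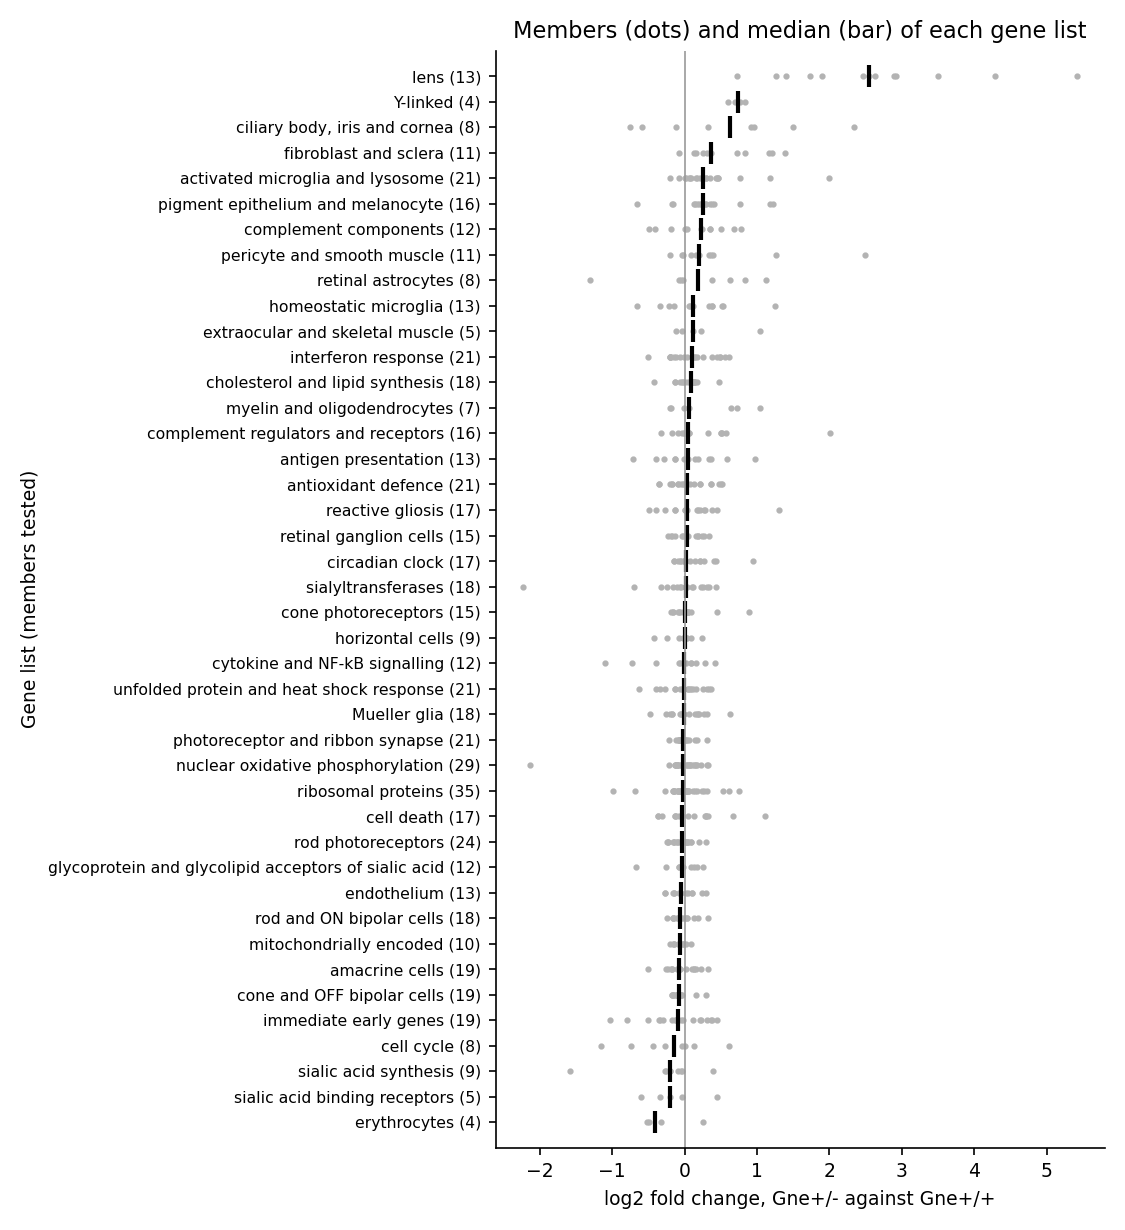
Log2 fold change of the pooled Gne term (horizontal axis) for the tested members of the gene lists (vertical axis, number tested in brackets). The sialidase list and the lymphocyte and granulocyte list, with 3 and 2 tested members, are not drawn. Dots are genes and bars are list medians. The lens list has the highest median, 2.55, the lists of retinal neurons lie near 0, and the leftmost dot of the sialic acid synthesis list is Gne.

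The genes ranked first by p among those not called were of low abundance or small change. Rspo1, a secreted activator of Wnt signalling, was the first after Gne (unadjusted p = 1.68e-04, chromosome 4, 124986430 to 125009099), at 4.41 (SE 1.04). It had at most 0.447 CPM in Gne+/+ libraries of run 1 and ranged from 0 through 0.871 to 12.6 CPM in Gne+/- libraries. The highest Rspo1 values, 12.6 and 8.09 CPM, came from Gne+/- mice 4 and 1, the libraries with the most lens counts. Without these mice the estimate was 3.00. The part of lens tissue in it was not tested. DESeq2 called Rspo1 (4.63, adjusted p = 0.0203) where edgeR did not. Rspo1 passed the filter on low counts only through Gne+/- libraries, which fixed its positive sign in advance. Its rank, p and this call therefore describe it and support nothing further.

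Mrps27, a mitochondrial ribosome protein gene, came close to separating the genotypes in run 1. There it ranged from 3.35 through 5.26 to 6.81 CPM in Gne+/+ and from 6.61 through 8.53 to 11.9 CPM in Gne+/- libraries. In run 2 it ranged from 14.4 to 19.5 and from 13.6 to 22.3 CPM, which overlap. The log2 fold change was 0.60 (SE 0.162, unadjusted p = 7.62e-04), at 0.68 with C3 and 0.53 without. Other positive genes by this ranking were Rnf10 (0.49, SE 0.152), a ubiquitin ligase gene, Ube2d1 (0.47, SE 0.159), a ubiquitin-conjugating enzyme gene, and Plcd3 (0.40, SE 0.129), a phospholipase C gene. Crygb, Bnipl, Thap8, Ifitm1 and Cmtm2b had estimates from 3.15 to 4.28 at medians of 0 to 0.0568 CPM in Gne+/+ libraries. At such levels the fitted fold change depends on the prior count and is no bound. These genes passed the filter on low counts mainly through Gne+/- libraries, which favoured a positive sign in advance.

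Zdhhc15, a palmitoyltransferase gene, had the smallest p after Gne among named genes with a negative estimate. It ranged from 4.70 through 7.04 to 10.4 CPM in Gne+/+ and from 2.39 through 4.11 to 5.64 CPM in Gne+/- libraries of run 1. Several libraries of each genotype lay where these ranges overlap. The log2 fold change was -0.75 (SE 0.218, unadjusted p = 0.00154), at -0.59 with C3, -0.89 without, -0.76 in run 1 and -0.64 in run 2. Dnajc9, a histone chaperone gene, stood at -0.34 (SE 0.103), Psph, the last enzyme of serine synthesis, at -0.40 (SE 0.126), and Colgalt2, a collagen galactosyltransferase gene, at -0.35 (SE 0.109). Further down, Hist1h1c, a linker histone gene, stood at -0.30, Trim9 at -0.33, Cyb561d2 at -0.50, Klhl8 at -0.27 and Pigs, of GPI anchor attachment, at -0.23.

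Genes beside Gne on chromosome 4 were examined as a group, because sequence near a targeted allele is inherited with it. Within 5 Mb on either side 114 genes were tested, and 0 were called. Of these 67 were positive, the median was 0.04, and 5 had an unadjusted p under 0.05, beside 3.28% of all genes. Tmod1, which caps actin filaments, stood at -1.08 (SE 0.345), with 1.47 to 12.3 CPM in Gne+/+ and 0.485 to 3.17 CPM in Gne+/- libraries of run 1. In run 2 it had 3.01 to 7.88 and 2.87 to 8.19 CPM, which overlap, and the estimate there was -0.28. Kif24, a kinesin gene, stood at 0.65 (SE 0.217) and Invs, a gene of primary cilia, at 0.42 (SE 0.163).

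Setting the C3 genotypes side by side uses separate libraries for each estimate. The sign of the Gne effect was the same in C3+/+ and C3-/- libraries for 8859 genes (50.9%), with a rank correlation across genes of 0.006. Between runs it was the same for 8856 genes (50.9%), with 0.013. Genes are not independent replicates and these values are descriptions. Among 9360 genes with a mean of 10 CPM or more the shares were 51.8% and 50.7%. The Gne by C3 interaction called 0 genes in edgeR (554 before adjustment, 3.18%), and the Gne by run interaction called 0 (518, 2.98%). Immediate early genes had a median of 0.25 with 12 of 19 members positive in C3+/+ libraries, and -0.39 with 2 of 19 in C3-/- libraries. The sign was the same in both for 9 of the 19, beside 50.9% of all genes, and the difference between the medians was not tested. Their pooled median was -0.09. Klf4, a transcription factor gene of this list, was negative in both (-0.70 and -0.88, pooled -0.80, SE 0.324).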

How the data were processed

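Retinal libraries of 27 mice were made with the QuantSeq 3′ kit from 100 ng of total RNA, per the labels' protocols. The authors aligned reads with STAR 2.7.3a and counted them with featureCounts (Subread 2.0.0), per the submitters' processing notes. Version 2.0.3 and Ensembl release 101 (GRCm38) were recorded with the counts, per the file headers. The deposited table holds unnormalized counts per gene over exon and gene features, without strand, and reads that overlap several genes were dropped, per the file headers. The table of 55487 genes equalled all 27 single-library files.

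Groups were taken from the sample titles. The analysis used edgeR 4.0.16 in R 4.3.3. After filterByExpr by group (minimum count 10), 17409 genes were tested with TMM factors and a robust quasi-likelihood fit of Gne genotype, C3 genotype and run (23 residual degrees of freedom, biological coefficient of variation 55.2%). Genes were called at a Benjamini-Hochberg adjusted p under 0.05 over all tested genes. Standard errors come from the F statistic, and CPM uses TMM-scaled library sizes. Fits within a C3 genotype or run used the same genes, except among the alternatives, where genes were filtered anew. All p-values and the counts behind them treat each mouse as a replicate, and counts are of reads, not of molecules. The procedure was tested on simulated data.

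Named genes were Gne and C3, called genes, the 12 positive and 12 negative genes with the smallest p (leaving out provisional symbols), the members of each list with the smallest p, at most 4, and fixed genes of complement, microglia, neurons and glia. Genes of 5 Mb beside Gne are those with the smallest p there. Some genes that the rule takes are not reported here. Members and lists were chosen with earlier results of these data known, so lists are described by counts and medians, with no test. Shares over all tested genes were not matched to the abundance of a list's members. Alternatives were DESeq2 1.42.0, limma-voom 3.58.1, other size factors and filters, other model terms, single runs and C3 genotypes, a term for Y-linked expression, mouse number as a block and leaving out libraries. Deviations of same-numbered mice had low correlations. This cannot exclude a pairing by number, which the labels do not state, and the main fit used none.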

Additional observations from a re-analysis of the deposited data

Results flagged for a closer look

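Of 24 groups of libraries checked (6 quantities in 4 groups of a run each), 4 held a library far from the others. All groups checked were of run 1, since those of run 2, with 2 or 3 libraries, were too small for this check. The critical value used marks about 1 in 20 groups of normally distributed values by chance, and these quantities were not tested for that distribution. Gne stood at 135.6 CPM in C3-/- mouse 5 of run 1, where the other 3 libraries of that group lay between 109.6 and 110.9 CPM. The summed CPM of the lens list was 174 in wildtype mouse 1 (others 1.19 to 23.3) and 133.2 in C3-/- mouse 1 (others 1.28 to 12.1), both Gne+/+ libraries of run 1. The summed CPM of erythrocyte genes was 685.8 in C3-/- mouse 6 (others 24.2 to 70.4). Leaving out any of these libraries left Gne as the 1 gene called.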

How the results depend on the processing

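Gne was called in 43 of 44 alternatives, and its log2 fold change ran from -1.61 to -1.55 when each library was left out. Each of these 27 fits called 1 gene for Gne genotype and 0 for either interaction. Without the run term 0 genes were called and Gne stood at -1.48 (SE 0.269, adjusted p = 0.118). DESeq2 called 3 genes, adding Rspo1 (4.63) and a gene with a provisional symbol, and no filter on low counts called 2. Rspo1 had passed that filter only through Gne+/- libraries. Without that filter the Gne by C3 interaction called 30 genes and the Gne by run interaction 25, and DESeq2 called 1 in the latter. The cause was not tested.

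With mouse number as a replicate block, 1 gene was called, Gne at -1.59, and the Gne by run interaction called 1. In that fit 1173 genes had an unadjusted p under 0.05 (edgeR), against 571 in the main fit. Of 31 same-numbered pairs, 4 had correlations of deviations over 0.1 (median -0.042), and 4 libraries correlated best with their own number.

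Of 206 named genes, 64 changed sign in at least 1 further alternative and 16 on leaving out a library, Gne in none. Leaving out Gne+/- mice 1 and 4, chosen after seeing the data, called 1 gene, Gne at -1.60. Intervals were widest for genes under 10 CPM, and the part of depth in this was not tested.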
